A study of Mus musculus with 48 samples.

Results

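The 10 genes described here, Saa1, Saa2, Saa3, Orm1, Orm2, Hp, Lcn2, Crp, S100a8 and S100a9, encode secreted acute-phase proteins and the neutrophil alarm proteins. They were taken as the rows of the count tables whose Ensembl identifiers map to these symbols, which gave 10 of 56748 identifiers. Each symbol matched 1 identifier, and all 10 genes passed the filter on low counts in liver, in brown adipose tissue (BAT) and in epididymal white adipose tissue (eWAT). RNA sequencing had been done on 48 libraries, in 12 groups of 4. The mice were male littermates with (hepAGT-/-, here KO) or without (hepAGT+/+, here WT) a hepatocyte deletion of angiotensinogen. All were fed a Western diet (TD.88137, with 21% milk fat and 0.2% cholesterol) over 12 weeks under a 14:10-hour light:dark cycle. The cages were kept either at 20 to 22 °C, called RT for room temperature, or at 30 °C, called TN for thermoneutral, a warmth at which mice need little extra heat production. The groups of each tissue were therefore WT RT, KO RT, WT TN and KO TN. The strain, the age and the Cre driver behind the deletion are not given in the sources used here. No group had a standard diet, so every level below is one under a Western diet.

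The acute-phase response is the change in plasma proteins that follows infection or injury. Interleukin signals and tumour necrosis factor reach the hepatocyte and act through STAT, NF-kB and C/EBP transcription factors, and the liver then secretes serum amyloid A, haptoglobin, orosomucoids and others. Fat is another source of several of these proteins, above all of haptoglobin and Saa3. S100a8 and S100a9 form calprotectin, a metal-binding protein that neutrophils and monocytes hold in bulk and release as an alarm signal. In bulk tissue, fewer cells of a type and less RNA per cell cannot be told apart.

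The unit of a level is CPM, a gene's counts per megacount of its library, with library sizes scaled by TMM within a tissue. A change is on the log2 scale, as KO over WT or as TN over RT, and comes from a quasi-likelihood model in edgeR. A gene was called where its Benjamini-Hochberg adjusted p, taken across every gene tested, was under 0.05. Counts of genes with an unadjusted p under 0.05 are given without the share of all genes under it, which was not counted. Some members varied together, so such counts are not of independent genes. Total counts ran from 23.7 to 43.7 megacounts per library. Angiotensinogen (Agt), the targeted gene, was at 276 to 504 CPM in the 8 WT livers and at 125 to 207 CPM in the 8 KO livers. The labelled tissues carried their defining markers. In eWAT 1 library, WT RT replicate 18, held 1104 CPM of 10 epididymis markers where the other 15 held at most 16.5 CPM. Some fat libraries held liver transcripts: albumin (Alb) reached 1700 CPM in BAT (KO TN replicate 2) and 3109 CPM in eWAT (KO RT replicate 16), against at least 34600 CPM in liver. Skeletal muscle transcripts also differed between BAT libraries: 6 markers summed to 6294 CPM in KO TN replicate 2, 4667 and 4291 in WT TN replicates 6 and 24, 3213 and 1007 in KO RT replicates 14 and 19, and 1.19 to 832 in the other 11. Replicates are labelled as separate biological samples with no further description, so p-values measure the spread between these samples.

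Per kilobase of transcript, haptoglobin had the highest mean level of the 10 genes in all 3 tissues, and Orm1 came next. Hp, which encodes the plasma scavenger of free haemoglobin, had 1474 CPM per kilobase in liver, 2131 in eWAT and 518 in BAT. Orm1, which encodes an orosomucoid (alpha-1-acid glycoprotein, a carrier of drugs and small lipids in plasma), had 797, 409 and 113. In liver Saa1 (158 CPM per kilobase), Crp (146), Saa2 (80.2), Saa3 (24.7), Orm2 (20.7) and Lcn2 (15.1) followed. S100a9 (2.28) and S100a8 (2.01) came last there. In eWAT the order after Hp and Orm1 was Saa3 (36.6 CPM per kilobase), S100a8 (13.1) and Lcn2 (10.2), and the other 5 genes were under 5 CPM per kilobase. These levels are scaled within each tissue, so they order the genes of a tissue and do not compare tissues. Hp, at 1474 in liver and 2131 in eWAT, did not differ detectably between them in the fit over all libraries. The plot of group means shows the levels, without division by length, for all 12 groups.

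**Figure D1:**
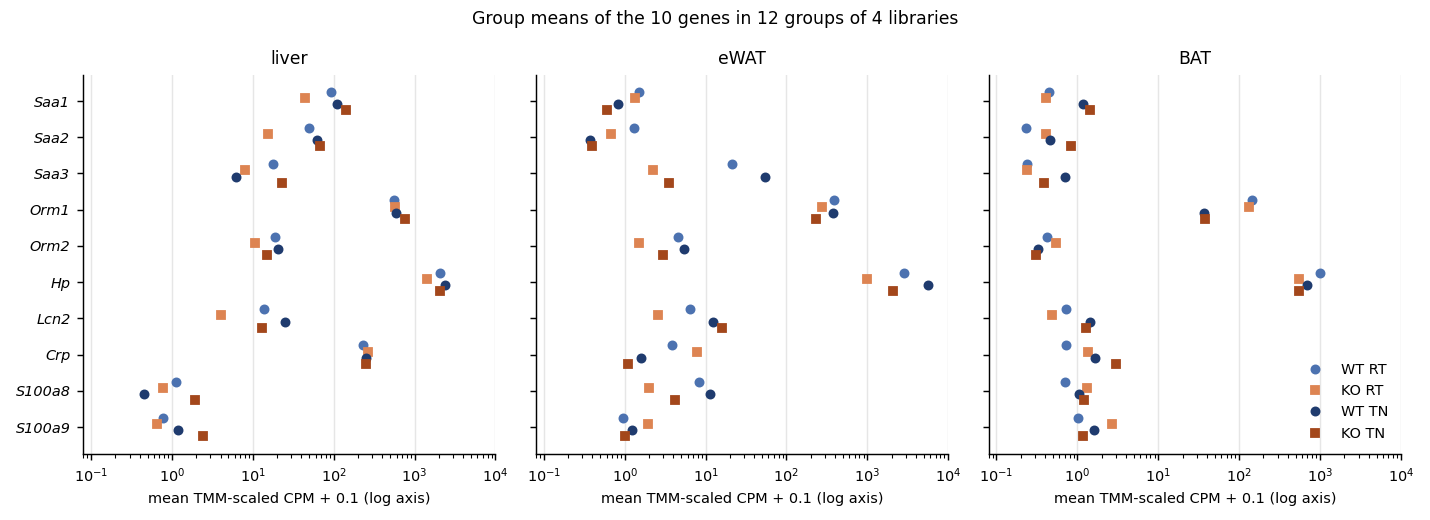
Mean TMM-scaled CPM, with 0.1 added and on a log axis, of each of the 10 genes in liver, eWAT and BAT; circles are WT and squares KO, light at RT and dark at TN, and each point is the mean of 4 libraries. Hp and Orm1 lie far to the right in every panel, Saa1, Saa2 and Crp do so only in liver, and Saa3 and Hp in eWAT split by genotype. Each tissue was scaled on its own, so small gaps between panels give no direction.

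Averaged over the 4 conditions, 8 of the 10 genes were called between liver and eWAT, where 73.8% of all genes tested were called. Of these 8, S100a8 was lower in liver (log2 difference -2.13, SE 0.31, edgeR adjusted p 5.87e-08). The other 7 were higher. Saa1 (log2 difference 7.13, SE 0.58), Saa2 (6.93, SE 0.53) and Crp (7.12, SE 0.62) differed most. Crp encodes C-reactive protein, a pentraxin that is only a weak acute-phase reactant in mice. Orm2 (2.84, SE 0.30), Orm1 (1.51, SE 0.13), Lcn2 (1.15, SE 0.34) and Saa3 (0.82, SE 0.37) differed less. For Saa3 the average joins groups that were unlike each other. The CPM levels are scaled within each tissue, whereas the log2 differences come from 1 scaling over all 48 libraries. A small gap in level between tissues therefore gives no direction. At TN the Saa3 mean was lower in liver than in eWAT in WT, at 6.02 against 54.2 CPM. In KO at TN it was higher in liver, at 23.2 against 3.47 CPM. At RT it was 7.91 CPM in liver against 2.16 in eWAT in KO. In WT at RT the gap was small, at 17.7 against 21.3 CPM. The tissue difference was not tested within each condition. The call for Saa3 was close to the threshold (edgeR adjusted p 0.0439, with 0.0224 to 0.173 over the alternatives). Hp did not differ detectably between liver and eWAT (0.24, SE 0.15, edgeR adjusted p 0.136). Between liver and BAT, 8 genes were higher in liver, where 31.6% of all genes tested were, and S100a8 (edgeR adjusted p 0.858) and S100a9 (0.366) were not called. Between BAT and eWAT, 6 genes were lower in BAT, against 31.1% of all genes: Saa3 by -4.87 (SE 0.48), Orm2 by -3.01 (SE 0.34), Lcn2 by -2.83 (SE 0.38), S100a8 by -2.05 (SE 0.31), Orm1 by -1.70 (SE 0.13) and Hp by -1.41 (SE 0.15) on the log2 scale.

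The 3 serum amyloid A genes are neighbours on mouse chromosome 7 and show how members of one family can differ. Their proteins are small apolipoproteins that ride on high-density lipoprotein. Saa1 is at chr7:46740497-46742980 on the minus strand, Saa2 at chr7:46751790-46754313 on the plus strand and Saa3 at chr7:46711998-46715700 on the minus strand (GENCODE M21, GRCm38). The main transcripts of Saa1 and Saa2 matched at 93.9% of aligned bases, and that of Saa3 matched at 62.2% to Saa1 and 61.9% to Saa2. No word of 100 bases in any of the 3 transcripts occurred in another gene, so reads that long can be told apart, while shorter reads from Saa1 and Saa2 could be split or dropped in counting. The bases from 250 to 51 upstream of each RefSeq start site (GRCm38.p6), read 5′ to 3′ on the strand of the gene, are printed because Saa1 and Saa2 were much higher in liver than in fat and varied together there, while Saa3 was also at a high level in eWAT. Capitals mark matches to the C/EBP pattern TTGCNNAA or to the NF-kB consensus, each searched on both strands.
Saa1, chr7:46743031-46743230 (minus strand): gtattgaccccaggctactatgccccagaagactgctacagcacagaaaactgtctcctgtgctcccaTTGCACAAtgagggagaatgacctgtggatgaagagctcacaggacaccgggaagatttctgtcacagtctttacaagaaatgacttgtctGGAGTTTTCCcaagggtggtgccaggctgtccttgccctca
Saa2, chr7:46751583-46751782 (plus strand): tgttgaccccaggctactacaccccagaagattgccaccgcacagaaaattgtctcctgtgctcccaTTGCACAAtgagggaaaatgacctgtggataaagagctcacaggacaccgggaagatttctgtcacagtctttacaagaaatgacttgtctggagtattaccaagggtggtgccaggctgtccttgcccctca
Saa3, chr7:46715727-46715926 (minus strand): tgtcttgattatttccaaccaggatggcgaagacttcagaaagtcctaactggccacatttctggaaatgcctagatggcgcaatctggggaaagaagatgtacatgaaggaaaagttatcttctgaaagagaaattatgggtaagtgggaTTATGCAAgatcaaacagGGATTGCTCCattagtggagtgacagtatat
The Saa1 and Saa2 windows matched at 93.5% of aligned bases, and the Saa3 window matched at 50.2% to Saa1 and 48.6% to Saa2. The C/EBP match began 182 bases upstream of the start in Saa1, 183 in Saa2 and 99 in Saa3. The NF-kB match began 91 bases upstream in Saa1 and 81 in Saa3, and the Saa2 window held none. No pattern overlapped another in these windows. Over promoters from 250 bases before to 50 after the start, 10.8% of 32851 held the C/EBP pattern and 26.8% held the NF-kB consensus. The STAT pattern TTCNNNGAA, present in 8.3% of promoters, was in none of the 8 member promoters that the reference table holds. Of these 8, 6 held the C/EBP pattern (Saa1, Saa2, Saa3, Orm2, Lcn2 and S100a9) and 3 held the NF-kB consensus (Saa1, Saa3 and Lcn2). A match of letters is a description and not a measured binding site.

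In liver Saa1 and Saa2 had their lowest mean in KO at RT and their highest in KO at TN. Saa1 was at 69.4, 73.0, 165.5 and 61.1 CPM in the 4 WT livers at RT and at 37.2, 39.6, 62.0 and 37.8 CPM in the 4 KO livers at RT. At TN it was at 75.2, 107.9, 106.5 and 143.9 CPM in WT and at 77.6, 182.0, 173.9 and 131.7 CPM in KO. The KO livers at RT were thus the lowest group, with 1 library reaching into the WT range, and the KO livers at TN were the highest. Saa2 followed the same order with means of 49.0 ± 24.6 CPM (SD, n = 4) in WT RT, 15.4 ± 5.76 in KO RT, 62.5 ± 29.8 in WT TN and 67.7 ± 27.95 in KO TN. Between KO livers at TN and at RT the log2 change was 1.68 for Saa1 (SE 0.35, edgeR adjusted p 0.0813) and 2.14 for Saa2 (SE 0.47, edgeR adjusted p 0.0950), so neither was called. Both were called by DESeq2 (adjusted p 0.00179 and 0.00101), which called 362 of 17594 genes. With edgeR both were called without KO TN replicate 2 (adjusted p 0.0277 and 0.0322), where 0.667% of all genes were. That library had the lowest Saa1 and Saa2 of its group. Over the 16 livers Saa1 and Saa2 varied together, with Pearson's r 0.96, Spearman's rho 0.909 and a permutation p of 1e-05, the smallest that 100000 resamples give. Its adjusted value, 2.5e-05, covers 10 chosen relations and not the correlations of members with all other genes. The permutation shuffled libraries across groups, so group differences enter this p and every other permutation p below. Without the 2 farthest livers r was 0.97, and within groups it was 0.924.

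**Figure D2:**
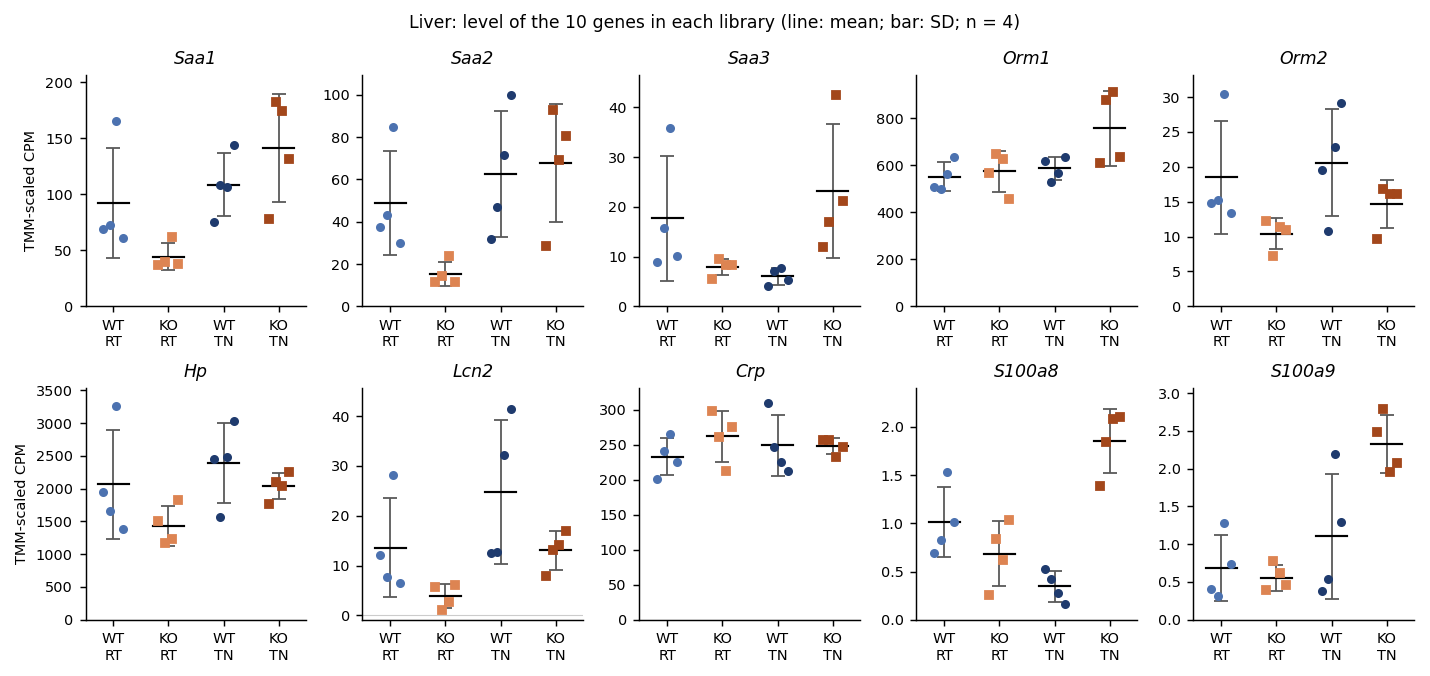
TMM-scaled CPM of the 10 genes in the 16 livers, by group of genotype and housing; points are libraries, lines the group means and bars the SD. Saa1, Saa2 and Lcn2 are lowest in KO RT, Saa3 and S100a8 in KO TN lie wholly above WT TN, and Crp lies between 201.3 and 310 CPM in every library.

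Saa3 is the serum amyloid A that macrophages and adipocytes also make. It was at 9.00, 15.8, 35.95 and 10.1 CPM in WT livers at RT and at 5.55, 9.46, 8.39 and 8.25 CPM in KO livers at RT. At TN it was at 4.15, 7.04, 7.69 and 5.22 CPM in WT and at 11.9, 17.0, 42.5 and 21.25 CPM in KO. At TN every KO liver lay above every WT liver, and the log2 change was 1.94 (SE 0.46, edgeR adjusted p 0.0334). S100a8 was called in the same comparison, from counts of 6 to 14 in WT livers and of 42 to 74 in KO livers. Most low counts in these libraries were even, so a read pair may have been counted as 2, and counts this low may stand for fewer read pairs than they show. Its level was 0.524, 0.419, 0.275 and 0.166 CPM in WT TN and 1.39, 1.84, 2.09 and 2.11 CPM in KO TN, without overlap, and the log2 change was 2.42 (SE 0.62, edgeR adjusted p 0.0331). S100a9, its partner in calprotectin, was at 0.374 to 2.20 CPM in WT TN and 1.96 to 2.80 CPM in KO TN. These groups overlapped, and S100a9 was not called (log2 change 1.08, SE 0.60, edgeR adjusted p 0.371). So 2 of the 10 genes were called in liver at TN, both higher in KO, where 1.34% of all genes tested were called higher and 3.18% were called in either direction. The same 2 genes were the members whose groups did not overlap, against 6.23% of all genes tested that lay higher without overlap. The calls were near the threshold. Without KO TN replicate 4, which had the highest Saa3, the log2 change of Saa3 was 1.46 (edgeR adjusted p 0.0902). Saa3 was called without KO TN replicate 2 (edgeR adjusted p 0.0289) or KO TN replicate 22 (0.0493) and not without any other of the 8 libraries (0.0541 to 0.0978). S100a8 was not called without any 1 of the 8 libraries (edgeR adjusted p 0.0511 to 0.1). With no filter on low counts neither was called.

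Of 9 tested monocyte and macrophage markers, 1 was called in liver at TN: Lyz2, a lysozyme gene, was higher in KO (log2 change 1.21, SE 0.24, edgeR adjusted p 0.0117). Of all genes tested, 1.34% were called higher there. All 9 markers had a log2 change above 0, with a median of 1.02 beside 0.05 over all genes tested, and 4 had an unadjusted p under 0.05. The summed level of 10 markers (Adgre1, Cd68, Csf1r, Lyz2, Itgax, Ly6c2, Ccr2, Plac8, Chil3 and Ctss) was 200, 210, 401 and 513 CPM in KO TN livers and 151 to 172 CPM in WT TN livers. At RT the sum was 102 to 185 CPM in KO livers and 148 to 208 CPM in WT livers. Of 14 neutrophil markers, 1 or 2 per TN liver reached 1 CPM, and their sum was 4.54 to 11.8 CPM in KO TN and 3.26 to 5.86 CPM in WT TN. Of 6 tested neutrophil markers, 0 were called by edgeR at TN and 2 had an unadjusted p under 0.05, and 5 had a log2 change above 0, with a median of 0.73. Csf3r, the receptor for the granulocyte growth factor G-CSF, was at 2.74 to 8.14 CPM in KO TN and 1.99 to 3.07 CPM in WT TN. Ly6g was at 0 in all 16 livers, and Camp, Mpo, Mmp8 and Stfa2l1 were at 0 in 14, 13, 11 and 11 of them. The part of macrophage and neutrophil content in the Saa3 and S100a8 differences was not tested.

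At RT none of the 10 genes was called between KO and WT livers by edgeR, where 0.0853% of all genes were called. DESeq2 called Saa2 and, over all genes, 203 of 17594. An unadjusted p under 0.05 was found for 6 members, and the share of all genes under it was not counted. Saa2, Orm2 and Lcn2 lay lower in every KO liver than in every WT liver, which held for 2.83% of all genes tested. Lcn2, or lipocalin 2, binds the siderophores with which bacteria take up iron. It was at 12.2, 7.64, 28.1 and 6.56 CPM in WT RT and at 5.62, 1.16, 2.77 and 6.08 CPM in KO RT, so the gap between the groups was small. At TN it was at 12.5, 12.8, 32.1 and 41.5 CPM in WT and at 7.84, 13.2, 14.1 and 17.0 CPM in KO. Orm2 was at 13.4 to 30.5 CPM in WT RT and 7.27 to 12.2 CPM in KO RT. WT RT replicate 15 was the highest of its group in Saa1, Saa2, Saa3, Orm2, Hp, Lcn2, Crp, S100a8 and S100a9.

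Hp, Orm1 and Crp, the members with the highest mean CPM in liver, were not called there by edgeR in any genotype or temperature comparison. Hp was at 2067 ± 832 CPM (SD, n = 4) in WT RT, 1432 ± 302 in KO RT, 2389 ± 608 in WT TN and 2042 ± 200.9 in KO TN. Its 95% interval for the genotype difference ran from -1.01 to -0.05 at RT and from -0.71 to 0.26 at TN on the log2 scale, and the edgeR adjusted p was 0.424 and 0.694. Orm1 was at 552 ± 63.1, 574.5 ± 86.2, 588 ± 48.8 and 758 ± 158.5 CPM in the same order, with 1 pair of KO TN livers at 878 and 910 CPM and the other pair at 608 and 634.5 CPM. Crp was at 233 ± 27.1, 262 ± 36.3, 249 ± 43.2 and 248 ± 11.4 CPM, and its 95% interval for the genotype difference at TN was -0.28 to 0.27. Hp and Lcn2 levels went together over the 16 livers (Pearson's r 0.912, Spearman's rho 0.891, adjusted permutation p 2.5e-05 for r), with r 0.868 within groups and 0.894 without the 2 farthest livers. S100a8 and S100a9 did so less, with r 0.525 and rho 0.45 (adjusted permutation p 0.042 and 0.09), r 0.379 without the 2 farthest livers and r 0.0511 within groups, so that relation rests on differences between groups.

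Housing temperature was not followed by a called change of any member in liver by edgeR. In WT livers edgeR called 0.0227% of all genes. DESeq2 called Saa3 and, over all genes, 75 of 17594. An unadjusted p under 0.05 was found for 2 members, and the share of all genes under it was not counted. Saa3 and S100a8 lay lower in every WT liver at TN than in every WT liver at RT, against 1.73% of all genes. In KO livers edgeR called 0.114% of all genes. DESeq2 called 362 of 17594 genes there, with Saa1, Saa2, Saa3 and S100a9 among them. The unadjusted p was under 0.05 for 8 members, again without a count over all genes. Saa1, Saa2, Saa3, Lcn2, S100a8 and S100a9 lay higher in every KO liver at TN than in every KO liver at RT, which 4.35% of all genes did. S100a9 was at 0.387, 0.772, 0.616 and 0.453 CPM in KO RT and 2.48, 2.80, 1.96 and 2.08 CPM in KO TN. The genotype by temperature interaction was 3.11 on the log2 scale for Saa3 (SE 0.64, edgeR adjusted p 0.399) and 2.98 for S100a8 (SE 0.85, edgeR adjusted p 0.448). For Saa1 it was 1.45 (SE 0.49, edgeR adjusted p 0.533). For that interaction in liver edgeR called no member and 0.00% of all genes tested. DESeq2 called Saa3 and, over all genes, 17 of 17594. The unadjusted p was under 0.05 for 4 members, again without a count over all genes. The genotype comparisons and the temperature comparisons share their 4 groups, and so do not stand as independent results.

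**Figure D3:**
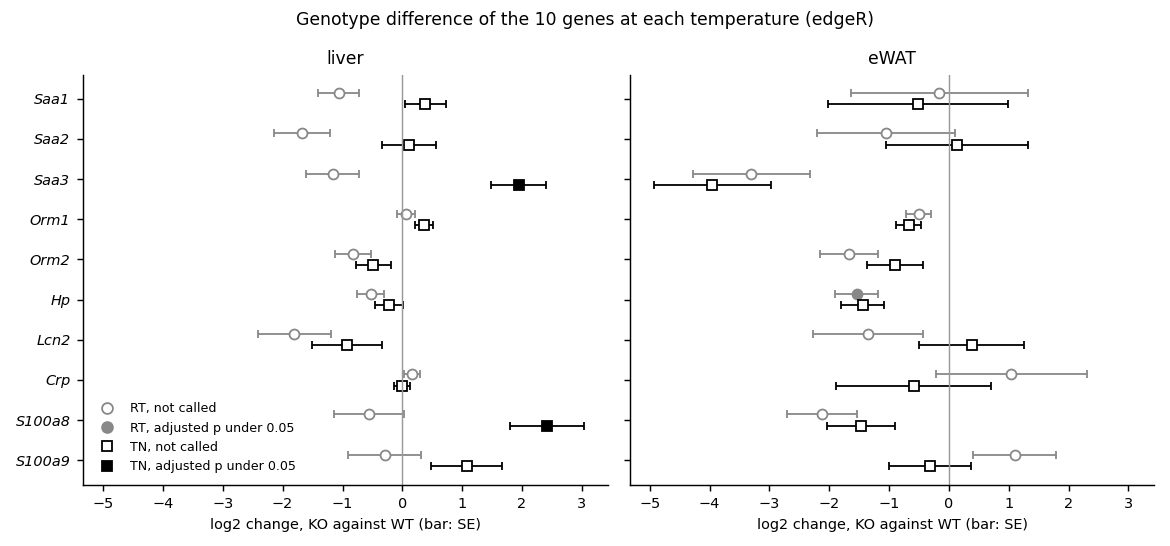
Log2 change, KO against WT, of the 10 genes at RT (grey circles) and TN (black squares) in liver and in eWAT; bars are the SE from edgeR, and filled points mark an adjusted p under 0.05. In liver Saa3 and S100a8 at TN are the filled points, and in eWAT Hp at RT is the only one, with Saa3 furthest to the left at both temperatures.

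In eWAT, Hp, Saa3, S100a8 and Orm2 lay lower in every KO library than in every WT library at RT, and Hp and Saa3 did so at TN as well. Of all genes tested, 6.89% lay lower without overlap at RT and 4.94% at TN. Hp is made by adipocytes as well as by the liver and was the most abundant member in eWAT. At RT it was at 1440, 3158, 1913 and 4885 CPM in WT and at 1115, 895, 1284 and 630 CPM in KO. Every KO library lay below every WT library, and Hp fell by 1.54 on the log2 scale (SE 0.36, edgeR adjusted p 0.0268). It was the 1 member called of 10 in eWAT at RT, where 3.13% of all genes tested were called lower and 4.34% were called in either direction. At TN Hp was at 5083, 7406, 6638 and 3173 CPM in WT and at 2013, 2075, 2632 and 1514 CPM in KO, again without overlap. The log2 change there was -1.44 (SE 0.36, edgeR adjusted p 0.0809), not called in a comparison where no member and 0.586% of all genes were. DESeq2 called it (adjusted p 0.00829) and, over all genes, 675 of 18933. The interaction for Hp was 0.10 (SE 0.50, edgeR adjusted p 0.976). The Hp call at RT held without WT RT replicate 12 (edgeR adjusted p 0.0123) or 15 (0.0357). Without any other of the 8 libraries the edgeR adjusted p was 0.0506 to 0.101, the last of these without WT RT replicate 18, which carried the epididymis transcripts and the highest Hp of its group. The log2 change without that library was -1.11. Hp was also not called with no filter on low counts, or when only the 8 libraries compared were fitted.

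**Figure D4:**
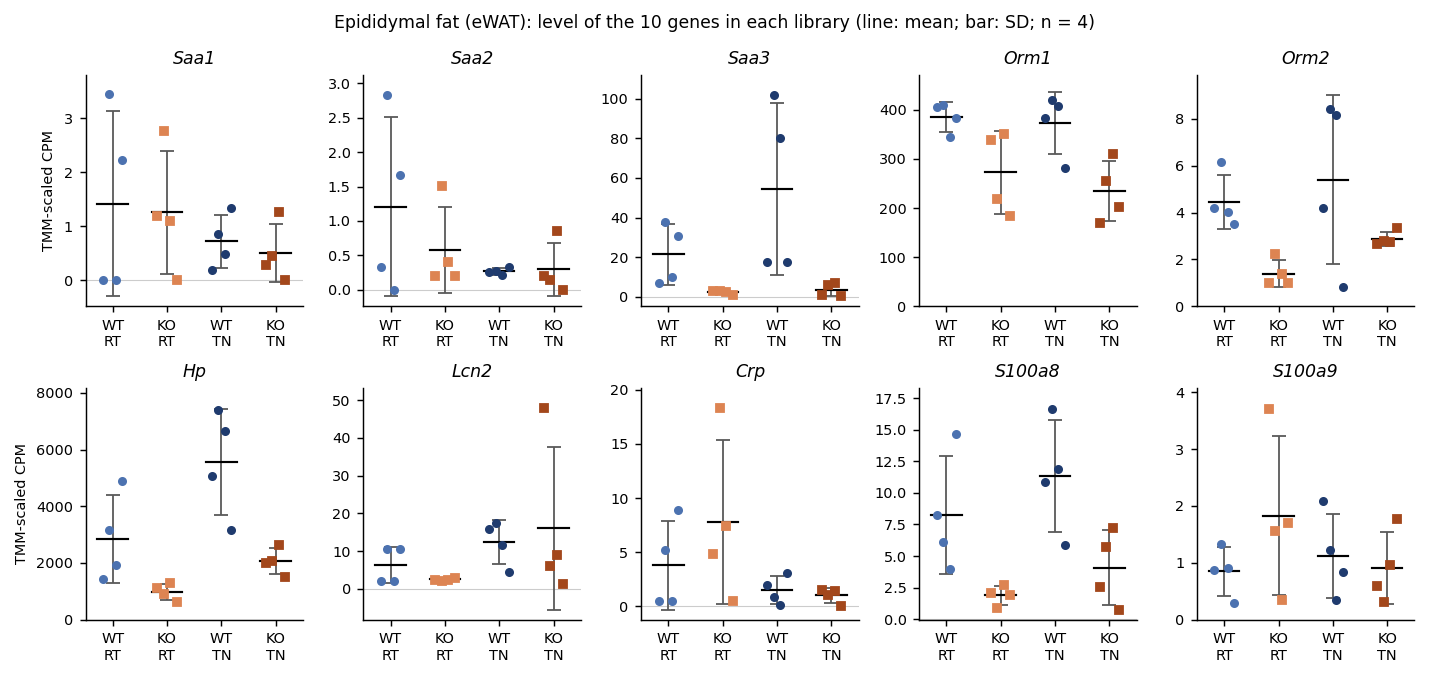
TMM-scaled CPM of the 10 genes in the 16 eWAT libraries, by group; points are libraries, lines the group means and bars the SD (bars can cross 0 where the spread exceeds the mean). Hp and Saa3 of the KO groups lie below those of the WT groups at the same temperature, and 1 KO TN library holds the highest Lcn2, at 48.1 CPM.

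Saa3 showed the widest genotype gap in eWAT. It was at 7.07, 37.8, 9.67 and 30.8 CPM in WT RT and at 2.79, 2.63, 2.25 and 0.976 CPM in KO RT. At TN it was at 17.3, 101.9, 80.3 and 17.5 CPM in WT and at 0.927, 5.82, 6.80 and 0.316 CPM in KO. The groups did not overlap at either temperature, and at each the WT libraries fell into a low and a high pair. The log2 change was -3.30 at RT (SE 0.97, edgeR adjusted p 0.0794) and -3.96 at TN (SE 0.98, edgeR adjusted p 0.0862), so Saa3 was not called by edgeR at either. DESeq2 called it at both (adjusted p 0.00421 and 0.000863), where it called 1509 and 675 of 18933 genes.

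S100a8 in eWAT was at 8.265, 6.08, 3.965 and 14.7 CPM in WT RT and at 2.08, 0.894, 2.73 and 1.89 CPM in KO RT, without overlap (log2 change -2.12, SE 0.59, edgeR adjusted p 0.0561, DESeq2 0.00175). At TN it was at 10.9, 16.6, 11.9 and 5.88 CPM in WT and at 2.59, 5.73, 7.26 and 0.759 CPM in KO, and 1 KO library lay above the lowest WT library. S100a9 did not follow it. Its means were 0.849 ± 0.426 CPM (SD, n = 4) in WT RT, 1.83 ± 1.396 in KO RT, 1.13 ± 0.737 in WT TN and 0.908 ± 0.632 in KO TN. Over the 16 libraries S100a8 and S100a9 had r -0.391 and rho -0.374 (adjusted permutation p 0.133 and 0.155), whereas S100a8 and Saa3 had r 0.871 and rho 0.871 (adjusted permutation p 5e-05 and 6e-05), r 0.865 without the 2 farthest libraries and r 0.674 within groups. Saa3 and Hp had r 0.867 and rho 0.803 (adjusted permutation p 4e-05 and 0.000414), with r 0.777 without the 2 farthest libraries and 0.791 within groups.

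Neither orosomucoid was called for genotype in eWAT by edgeR. Orm2 was at 4.19, 6.14, 4.03 and 3.49 CPM in WT RT and at 0.988, 2.235, 1.40 and 0.976 CPM in KO RT, without overlap (log2 change -1.67, SE 0.49, edgeR adjusted p 0.0598, DESeq2 0.0132). At TN WT replicate 8, at 0.839 CPM, lay below all 4 KO libraries, at 2.66 to 3.32 CPM. Orm1 was at 386 ± 30.2 CPM (SD, n = 4) in WT RT, 273 ± 84.8 in KO RT, 373 ± 62.9 in WT TN and 235 ± 61.3 in KO TN, and was not called at either temperature by edgeR (adjusted p 0.207 and 0.146), while DESeq2 called it at TN (0.0302). At RT the members that did not overlap were Saa3, Orm2, Hp and S100a8, all lower in KO, against 6.89% of all genes. At TN they were Saa3 and Hp, both lower, against 4.94% of all genes.

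In eWAT 3 of the 10 tested monocyte and macrophage markers were called lower in KO at RT and 1 at TN. At RT they were Itgax (log2 change -2.16, edgeR adjusted p 0.0115), Ctss (-0.97, 0.0367) and Cd68 (-0.87, 0.0485), and at TN the 1 was Ctss (-1.18, 0.0448). Of all genes tested, 3.13% were called lower at RT, and 0.586% were called in either direction at TN. The 10 markers summed to 722 to 1064 CPM in WT RT and 517 to 752 CPM in KO RT, and to 1153 to 2045 CPM in WT TN and 830 to 1036 CPM in KO TN, so the sums overlapped at RT and did not at TN. Neutrophil markers were low and overlapped, with sums of 4.38 to 23.0 CPM in WT RT, 8.81 to 11.5 in KO RT, 9.89 to 34.0 in WT TN and 10.6 to 20.1 in KO TN. Of the 14 neutrophil markers, 1 to 3 per eWAT library reached 1 CPM, so the sums rest on few genes. Mmp9 had a median of 5.81 CPM and Csf3r of 2.52 CPM. Il1r2, with a median of 0.271 CPM, reached 18.9 CPM, and Ltf, with a median of 0, reached 14.6 CPM. Ly6g had counts in 1 of the 16 libraries. The part of macrophage content in the Hp, Saa3 and S100a8 differences was not tested.

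Saa1, Saa2 and Crp were low in both fat depots beside their liver levels and varied with albumin by library. In eWAT Saa1 ran from 0 to 3.44 CPM, Saa2 from 0 to 2.83 CPM and Crp from 0 to 18.3 CPM, the last in KO RT replicate 16, the library with the highest albumin. In BAT the highest Saa1 (4.28 CPM), Saa2 (2.61 CPM) and Crp (7.28 CPM) were all in KO TN replicate 2, which had the highest albumin of that depot. Over the 16 libraries Crp and Alb had r 0.928 and rho 0.924 in eWAT and r 0.904 and rho 0.929 in BAT (adjusted permutation p 2.5e-05 for r and 5e-05 for rho in both). Saa1 and Alb had r 0.834 and rho 0.836 in eWAT (adjusted permutation p 0.000129 and 0.000167) and r 0.75 and rho 0.8 in BAT (0.000837 and 0.00055). Within groups the 4 values of r were 0.936, 0.912, 0.843 and 0.68, and without the 2 farthest libraries 0.906, 0.895, 0.87 and 0.726, in the same order. No genotype or temperature difference of these 3 genes in fat was called by edgeR. Lcn2 in eWAT had means of 6.32 ± 4.87 CPM (SD, n = 4) in WT RT, 2.47 ± 0.3685 in KO RT, 12.4 ± 5.78 in WT TN and 16.1 ± 21.6 in KO TN, where replicate 21 was at 48.1 CPM and the other 3 at 1.17 to 9.02 CPM.

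By housing temperature, no member was called in eWAT by edgeR. In WT 0.00% of all genes were called, and 1 member, Hp, had an unadjusted p under 0.05. In KO edgeR called 1.74% of all genes. DESeq2 called Lcn2 and, over all genes, 1154 of 18933. An unadjusted p under 0.05 was found for 4 members, and the share of all genes under it was not counted. Hp and Orm2 lay higher in every KO library at TN than at RT, against 5.67% of all genes.

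In BAT the main member result was Orm1, which was lower at TN in both genotypes. It was at 87.1, 168.7, 180.7 and 145.0 CPM in WT RT and at 45.7, 19.2, 31.2 and 51.6 CPM in WT TN. In KO it was at 146.6, 107.1, 137.2 and 134.1 CPM at RT and at 61.8, 29.0, 24.8 and 35.2 CPM at TN. The TMM factors in BAT ran from 0.751 to 1.323, against 0.903 to 1.063 in liver. By plain library totals Orm1 was at 84.97 to 135.6 CPM in WT RT and 25.4 to 52.97 CPM in WT TN. In KO it was then at 102.5 to 130.4 CPM at RT and 29.96 to 72.4 CPM at TN, so the difference was smaller on that scale. Brown adipocyte markers were lower at TN too: 4 of 6 (Elovl3, Ucp1, Cox7a1 and Cidea) were called lower in each genotype, with a median log2 change of -1.47 in WT and -1.43 in KO, and their part in the Orm1 change was not tested. For Orm1, no library at TN reached the lowest library at RT in either genotype, as for 14.3% of all genes in WT and 11.8% in KO. Orm1 fell by 1.98 on the log2 scale in WT (SE 0.33, edgeR adjusted p 0.000381) and by 1.80 in KO (SE 0.33, edgeR adjusted p 0.00178). It was the 1 member of 10 called in each, where 16.7% of all genes in WT and 8.52% in KO were called lower, and it was called without any 1 of the libraries and under every other setting tried. Of the 16 BAT libraries, 5 held 1007 to 6294 CPM of skeletal muscle markers. In the 11 others, an alternative chosen after the data were seen, Orm1 fell by 1.80 in WT (2 TN libraries, SE 0.29, edgeR adjusted p 0.000616) and by 2.19 in KO (2 RT libraries, SE 0.28, edgeR adjusted p 0.000479). The interaction was 0.18 (SE 0.45, edgeR adjusted p 0.915). Orm1 was also the 1 member whose temperature effect differed over the 3 tissues, by an edgeR F test (adjusted p 0.000185 in WT and 0.00229 in KO), where 13.2% and 4.17% of all genes did. In liver the Orm1 temperature change was 0.09 in WT (SE 0.15) and 0.40 in KO (SE 0.15), and in eWAT it was -0.05 (SE 0.21) and -0.22 (SE 0.21).

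**Figure D5:**
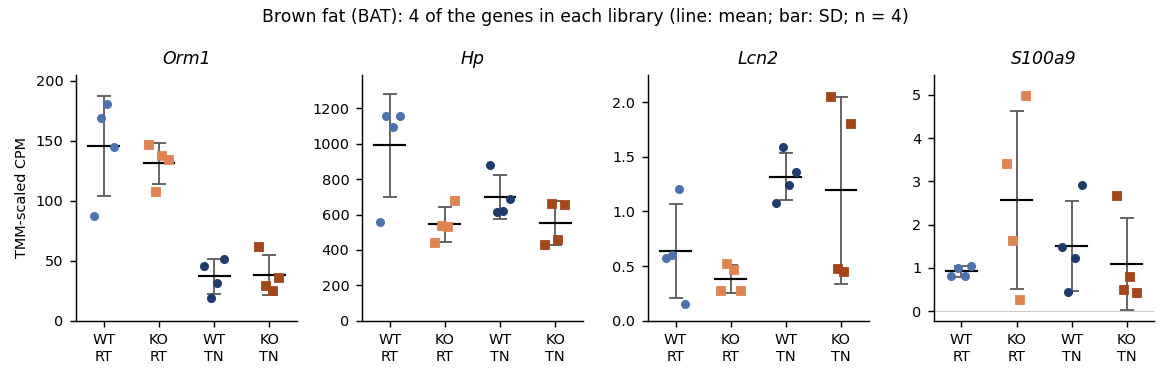
TMM-scaled CPM of Orm1, Hp, Lcn2 and S100a9 in the 16 BAT libraries, by group; points are libraries, lines the group means and bars the SD. All 8 libraries at TN lie below all 8 at RT for Orm1, and 1 WT RT library lies apart from its group for Hp, at 559 CPM.

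Hp in BAT was at 559, 1158, 1093 and 1159 CPM in WT RT, at 438, 535, 529 and 674 CPM in KO RT, at 880, 615, 618 and 687 CPM in WT TN and at 429, 662, 457 and 652 CPM in KO TN. The log2 genotype change at RT was -0.87 (SE 0.23, edgeR adjusted p 0.0998), in a comparison where no member and 0.0887% of all genes were called. Without WT RT replicate 12, the low library, it was -1.06 (edgeR adjusted p 0.00617), and then 10.6% of all genes were called as well. DESeq2 called it with all libraries (adjusted p 0.00849) and, over all genes, 981 of 18032. At TN 0.00% of all genes were called by edgeR for genotype in BAT, no member had an unadjusted p under 0.05, and the Hp change was -0.35 (SE 0.23). The other 8 members were at or under 7.28 CPM in every BAT library. Lcn2 was at 0.634 ± 0.430 CPM (SD, n = 4) in WT RT, 0.381 ± 0.127 in KO RT, 1.32 ± 0.215 in WT TN and 1.19 ± 0.854 in KO TN, and S100a9 at 0.266 to 4.96 CPM over the 16 libraries. In the 11 libraries with less muscle transcript S100a9 was called higher in KO than in WT at RT (log2 change 2.16, SE 0.50, edgeR adjusted p 0.0374). There 2.31% of all genes were called. It was also called lower in KO at TN than at RT (-2.84, SE 0.55, edgeR adjusted p 0.00623), where 6.88% of all genes were called. The 2 KO libraries kept at RT were at 3.41 and 4.96 CPM. Replicates 14 and 19, left out, were at 1.615 and 0.266 CPM, so the KO RT libraries kept were the highest of their group. With all 16 libraries S100a9 was called in neither comparison.

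Whether the genotype difference of a member differed between tissues was tested over the 24 libraries of each temperature, with 1.33% of all genes called at RT and 0.957% at TN. No member was called. Saa3 at TN, higher in KO liver and lower in KO eWAT, had an edgeR adjusted p of 0.0510, the nearest to the threshold, and was called with RLE scaling and with the filter of 1 CPM in 4 libraries. S100a8 (edgeR adjusted p 0.0774) and Hp (0.0872) followed at TN, and S100a8 at RT was at 0.0887.

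The other genes of the response were counted from 4 lists: 20 further acute-phase genes, 8 negative acute-phase genes (plasma proteins that fall in the response), 22 genes of cytokine signalling and 12 receptors for the member proteins. In liver 2 calls were made by edgeR over these lists in the 4 genotype and temperature comparisons. Of all genes tested, 0.114% were called by temperature in KO liver and 3.18% for genotype in liver at TN. Apcs, serum amyloid P and the main pentraxin reactant of mice, was higher in KO at TN than at RT, with 81.5 ± 14.9 CPM (SD, n = 4) against 37.8 ± 8.58 (log2 change 1.11, SE 0.21, edgeR adjusted p 0.0396). Fcgr3, an Fc receptor that binds C-reactive protein, was higher in KO than in WT at TN, with 13.1 ± 7.29 CPM against 5.24 ± 0.644 (log2 change 1.32, SE 0.32, edgeR adjusted p 0.0248). The median log2 change of the acute-phase list in liver was -0.19 for genotype at RT and -0.14 at TN, beside 0.02 and 0.05 over all genes tested.

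In KO eWAT at RT, 3 of 20 tested acute-phase genes were lower and 1 was higher. Of all genes tested, 3.13% were called lower there and 4.34% in either direction. Lbp, which hands bacterial lipopolysaccharide to its receptor, fell from 394 ± 107 CPM (SD, n = 4) to 109 ± 15.7 (log2 change -1.85, SE 0.26, edgeR adjusted p 0.00223). Serpina3n, a protease inhibitor, fell by 1.28 on the log2 scale (SE 0.23, edgeR adjusted p 0.00563) and Lrg1, a leucine-rich plasma glycoprotein, by 1.23 (SE 0.32, edgeR adjusted p 0.0431). Cp, the copper carrier ceruloplasmin, rose by 0.79 (SE 0.17, edgeR adjusted p 0.0157). Of 20 tested cytokine signalling genes, 3 were lower there: Il1rn, the interleukin-1 receptor antagonist (-2.81, SE 0.53), Osmr, the oncostatin M receptor (-0.67, SE 0.15), and the kinase gene Jak1 (-0.34, SE 0.09). None of the 8 negative acute-phase genes and none of the 11 tested receptors was called by edgeR. The median log2 change of the acute-phase list was 0.61 at RT and -0.94 at TN, beside -0.002 and 0.01 over all genes, so at RT the median and the 3 lower calls differed in sign. Albumin ran from 22.3 to 3109 CPM in eWAT, and the part of liver transcripts in that median was not tested. At TN Serpina3n (-1.04, SE 0.22, edgeR adjusted p 0.0452), Il1rn (-2.61, SE 0.52, edgeR adjusted p 0.0401) and Cebpb, which encodes a C/EBP factor (-0.67, SE 0.14, edgeR adjusted p 0.0422), were lower in KO. By temperature, Cebpb was lower (-0.63, SE 0.14) and Cd163, the macrophage receptor for haptoglobin bound to haemoglobin, was higher (0.88, SE 0.19, edgeR adjusted p 0.0310) in KO at TN than at RT, and no gene of the 4 lists was called by edgeR in WT. Of all genes tested in eWAT, 0.586% were called for genotype at TN, 1.74% by temperature in KO and 0.00% by temperature in WT.

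In BAT some genes of the 4 lists were called by temperature, where 15.9% of all genes tested were called higher and 16.7% lower in WT, and 6.64% and 8.52% in KO. Orm3, the third orosomucoid gene, was lower at TN as Orm1 was, with 2.06 ± 0.527 CPM (SD, n = 4) against 15.2 ± 3.80 in WT (log2 change -2.88, SE 0.27, edgeR adjusted p 1.34e-06) and 4.08 ± 1.22 against 21.9 ± 3.75 in KO (-2.42, SE 0.26, edgeR adjusted p 8.34e-06). Orm1 and Orm2 shared 6.95% of their 100-base transcript words and Orm3 shared none with either. Against that direction, Steap4 and Lrg1 were higher at TN in both genotypes, Lbp in WT and Cd14 in KO, so that 3 of 20 acute-phase genes were higher and 1 was lower in each, a share near the background in WT. Steap4, a metal reductase, was at 175 ± 38.7 CPM against 69.7 ± 9.16 in WT. Of 19 tested cytokine signalling genes, 11 were higher and 1 was lower in WT, and 5 were higher in KO, with Socs3, a feedback inhibitor of this signalling, at a log2 change of 2.06 (SE 0.37) and 2.48 (SE 0.38). Of 10 tested receptors, 4 were higher in WT and 3 in KO. Rbp4, the retinol carrier, was the 1 negative acute-phase gene called, lower in both. The median log2 change of the cytokine list was 0.75 in WT and 0.37 in KO, that of the acute-phase list 1.32 and 1.22 and that of the negative acute-phase list 1.12 and 1.52, beside 0.11 and 0.04 over all genes tested. The 10 macrophage markers summed to 43.8 to 107 CPM in BAT at RT and 179 to 494 CPM at TN, and 7 of the 9 tested were called higher at TN in each genotype. Of 10 hepatocyte markers 0 were called by edgeR, and 0 had an unadjusted p under 0.05, while all 10 had a log2 change above 0 in both genotypes, with medians of 1.46 in WT and 1.40 in KO. The part of macrophage, liver, muscle and brown adipocyte transcripts in these changes was not tested. No gene of the 4 lists was called for genotype in BAT by edgeR.

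The genes whose log2 level followed a member most closely over the 16 libraries of a tissue were sought where the mean level reached 1 CPM (11839 in liver, 12304 in BAT and 12972 in eWAT). In eWAT they were Serpina3n (r 0.956), C1qb (0.943) and Ctss (0.941) for Hp, with C1qb and Ctss being macrophage transcripts. For Saa3 in eWAT they were Tph2 (0.945), Lrg1 (0.938) and Atp6v1b2 (0.936), and for S100a8 Pfkfb4 (0.958), Igfals (0.949) and Rab1a (0.948). In liver the members led each other's lists: Saa2 for Saa1, Hp for Orm2 (r 0.899) and Hp for Lcn2. For liver Saa3 they were Epsti1 (0.824), Cxcl16 (0.807) and Snrnp25 (0.801), for S100a8 Serpina3g (0.871), Saa3 (0.847) and P2rx4 (0.838), and for Crp Itih3 (0.801), Zbtb5 (0.783) and Plg (0.776). For Orm1 they were Cd302 (0.905), Mtln (0.89) and Tomm5 (0.877) in liver and Txndc15 (0.965), Mogat1 (0.961) and Cdc34 (0.956) in BAT. For S100a9 in BAT, where its mean was highest, they were Lama3 (0.816), Tm4sf1 (0.803) and Sik1 (0.771). These are the highest of many correlations over libraries that share their groups.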

How the data were processed

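RNA from snap-frozen liver, BAT and eWAT was purified with the Maxwell RSC simplyRNA kit, then made into NEBNext Ultra libraries and sequenced as read pairs, per the labels. Library sizes were scaled with TMM, the trimmed mean of M values. The submitters' processing notes name fastp, STAR 2.6.1d, featureCounts 1.5.0-p3 and the GRCm38/mm10 build. The annotation release and strand setting are not given in the sources used here. The authors deposited raw gene counts, 1 table per library. Of counts from 1 to 20, 75.5% were even, and how read pairs were counted is not given. Symbols came from GENCODE M21, with 4675 of 56748 identifiers unmatched.

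Each tissue was fitted over its 16 libraries with edgeR 4.0.16 (R 4.3.3; filterByExpr with a minimum count of 10, TMM, robust quasi-likelihood, Benjamini-Hochberg, 0.05). Tissues were compared over 48 libraries and effects by tissue over 24. The script was tested on simulated data. Alternatives were RLE scaling, no filter, a filter of 1 CPM in 4 libraries, DESeq2 1.42.0, only the 8 libraries compared, each library left out and, chosen after the data were seen, BAT without the libraries of at least 1000 CPM of muscle markers. Correlations used log2(CPM + 1). For 10 chosen relations a permutation p was computed by shuffling the libraries of a tissue across its groups. Values of r within groups were given no p. Beyond the members, named genes were up to 3 per list and direction with the largest change among those called with a mean of at least 1 CPM, and the 3 most correlated genes per member in the tissue of its highest mean and where it was called. The members and lists were chosen with earlier results of these data known.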

Additional observations from a re-analysis of the deposited data

Results flagged for a closer look

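In 8 of 88 sets of 4 values, each 1 member in 1 group with a mean of at least 1 CPM, 1 library lay far from the other 3 by Dixon's test. For a single set chance gives this in about 1 of 20. The 88 sets come from the same 12 groups of libraries and are not independent, so their share cannot be set against that rate. In liver, Saa1 was at 165.5 CPM in WT RT replicate 15, with the next at 73.0 CPM, and at 62.0 CPM in KO RT replicate 19, with the next at 39.6 CPM. Orm2 was at 30.5 CPM in the same WT RT replicate 15, with the next at 15.2 CPM, and at 9.63 CPM in KO TN replicate 2, with the next at 16.1 CPM. In eWAT, Lcn2 was at 48.1 CPM in KO TN replicate 21, with the next at 9.02 CPM. In BAT, Hp was at 558.7 CPM in WT RT replicate 12, with the next at 1093 CPM. In BAT KO TN replicate 2, Saa1 was at 4.28 CPM, with the next at 0.523 CPM, and S100a9 was at 2.67 CPM, with the next at 0.781 CPM. That library also had the highest albumin and the highest muscle marker sum of the depot, and the part of liver and muscle transcripts in these values was not tested.

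The Orm1 temperature effect differed over the 3 tissues in WT (edgeR adjusted p 0.000185) and in KO (edgeR adjusted p 0.00229). The BAT effect was lower than that in eWAT by -1.90 and -1.57 on the log2 scale, and the liver effect differed from that in eWAT by 0.14 and 0.59.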

How the results depend on the processing

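No alternative turned the direction of a called value. DESeq2 called 1 member in liver between genotypes at RT (Saa2), 1 by temperature in WT liver (Saa3), 4 in KO liver, 1 for the liver interaction (Saa3), 1 in BAT between genotypes at RT (Hp), 2 by temperature in KO BAT (Orm1 and Lcn2), 4 and 3 in eWAT between genotypes at RT and TN, and 1 by temperature in KO eWAT (Lcn2). With no filter on low counts, 0 members were called in liver at TN and 0 in eWAT at RT. The filter of 1 CPM in 4 libraries gave 2 in eWAT at RT (Hp and S100a8), 1 for genotype by tissue at TN (Saa3) and 2 for temperature by tissue in WT (Orm1 and S100a8). RLE scaling gave 1 for genotype by tissue at TN (Saa3), and only the 8 libraries compared gave 3 in eWAT at RT (Orm2, S100a8 and Saa3). Without the 5 BAT libraries of at least 1000 CPM of muscle markers, an alternative chosen after the data were seen, 1 member was called in BAT between genotypes at RT (S100a9), 2 by temperature in KO (Orm1 and S100a9) and 1 for the interaction (S100a9), and over all genes 434 were called against 16 between genotypes at RT, 1293 against 2735 by temperature in KO and 33 against 0 for the interaction.

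With each library left out, the members called were 0 to 1 in liver at TN, 0 to 2 by temperature in KO liver, 0 to 1 in eWAT between genotypes at RT and at TN, 0 to 1 in BAT between genotypes at RT and 1 to 2 by temperature in WT BAT. They were 7 to 9 for liver against eWAT, 6 to 7 for BAT against eWAT, 0 to 2 for genotype by tissue at TN, and 1 to 3 for temperature by tissue in both genotypes. Over all genes, edgeR then called 0.981% to 2.75% in liver at TN and 0.00% to 0.840% by temperature in KO liver. In eWAT it called 1.47% to 4.22% between genotypes at RT and 0.00507% to 1.21% at TN. In BAT it called 0.00% to 10.6% between genotypes at RT and 24.1% to 35.9% by temperature in WT. Such shares are not given here for the comparisons across tissues. The cause of these changes was not tested. Over all genes, DESeq2 called 203 against 15 in liver at RT, 1111 against 560 in liver at TN, 75 against 4 and 362 against 20 by temperature in WT and KO liver, 981 against 16 in BAT at RT, 1509 against 821 and 675 against 111 in eWAT at RT and TN, 1154 against 330 by temperature in KO eWAT, 20 against 0 in BAT at TN, 100 against 0 by temperature in WT eWAT, and 17, 21 and 12 against 0 for the interactions in liver, BAT and eWAT. With no filter the counts were 25 in liver at RT, 10 and 77 by temperature in WT and KO liver, 47 in BAT at RT and 1 by temperature in WT eWAT. The filter of 1 CPM gave 9 in liver at RT and 0 in BAT at RT, and RLE scaling gave 0 in BAT at RT. Only the 8 libraries compared gave 8 and 13 by temperature in WT and KO liver, and 0 in BAT at RT, in eWAT at TN and by temperature in KO eWAT.

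The groups compared within a tissue share no replicate numbers. Across tissues the numbers are shared, and the labels do not say whether a shared number marks the same animal. Of same-numbered liver and BAT pairs, 2 of 13 correlated above 0.1 (median 0.04), against 3 of 51 different-numbered pairs (median -0.018). For liver and eWAT it was 1 of 11 (0.039) against 2 of 53 (-0.01). For BAT and eWAT it was 1 of 11 (-0.084) against 16 of 53 (0.008). The main fits across tissues treat the libraries as independent. With the replicate block, 7 members were called for liver against eWAT, without Saa3 (edgeR adjusted p 0.173). For liver against BAT 8 were called, and for BAT against eWAT 6. In the main fit 73.8% of all genes were called between liver and eWAT. There 31.6% were higher in liver than in BAT, and 31.1% were lower in BAT than in eWAT. The shares under the block are not given here for these tissue comparisons. With the block, 0 members were called for genotype by tissue at both temperatures and 1 for temperature by tissue in each genotype. Over all genes the block gave 37 calls against 265 for genotype by tissue at RT, 11 against 195 at TN, and 892 against 2630 and 269 against 845 for temperature by tissue in WT and KO.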
